A study of Mus musculus with 2 samples.

Results

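Naive pluripotency transcription factors were examined in mouse embryonic stem cells (mESCs) of the iXist-ChrX-Dom line, without induction. The 10 members (Nanog, Klf2, Klf4, Klf5, Esrrb, Tfcp2l1, Tbx3, Zfp42, Prdm14 and Nr0b1) were taken by symbol from a count table of 22556 genes, and all 10 were found. The libraries were made from polyadenylated RNA of a female XX line (strain label Dom/129S x Cast) in which a TetOn promoter stands in place of the Xist promoter on the Dom/129S allele. Both libraries belong to a single untreated group (0 h, 2 replicates), so there was no comparison between conditions. The cells were kept in serum with LIF-conditioned medium on inactivated fibroblast feeders, which were taken off by pre-plating before the experiment. The 2 replicates come from a single engineered line, and no label says whether they were separate cultures, so the spread between them may be technical.

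Naive factors form the part of the pluripotency network that is active in mESCs and in the preimplantation epiblast and is switched off as cells move towards implantation-stage epiblast. Oct4 and Sox2 span both states, whereas the naive factors mark the earlier one. LIF acts through STAT3 on several of them, and in serum cultures some are known to vary from cell to cell. In bulk libraries like these, fewer cells with a transcript and less transcript per cell cannot be told apart.

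The regions just before the starts of Nanog and Zfp42 are shown because these genes gave the highest mean levels of the 10, and that of Nr0b1 because it is the X-linked member. Each sequence is the 250 bases before an annotated start in RefSeq (GRCm38.p6), read 5′ to 3′ on the strand of the gene. Capitals mark matches, on either strand, to 6 motifs of pluripotency factors: the octamer ATTTGCAT, its shorter form TTTGCAT (added after the sequences had been read), the SOX site CATTGT, the ESRRB site AAGGTCA, the KLF box CCNCNCCC and the STAT site TTCNNNGAA. Nanog lies on the plus strand at chr6:122707239-122707488, Zfp42 on the minus strand at chr8:43307010-43307259 and Nr0b1 on the plus strand at chrX:86191525-86191774.
Nanog: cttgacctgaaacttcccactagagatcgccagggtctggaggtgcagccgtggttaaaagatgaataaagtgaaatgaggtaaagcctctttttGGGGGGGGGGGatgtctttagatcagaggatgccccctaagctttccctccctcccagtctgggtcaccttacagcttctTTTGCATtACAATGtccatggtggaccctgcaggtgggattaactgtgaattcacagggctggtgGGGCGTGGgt
Zfp42: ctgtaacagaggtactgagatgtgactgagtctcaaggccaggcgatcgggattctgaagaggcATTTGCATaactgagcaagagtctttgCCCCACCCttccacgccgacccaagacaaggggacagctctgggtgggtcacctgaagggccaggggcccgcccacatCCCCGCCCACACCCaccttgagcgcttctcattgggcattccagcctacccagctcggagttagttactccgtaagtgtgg
Nr0b1: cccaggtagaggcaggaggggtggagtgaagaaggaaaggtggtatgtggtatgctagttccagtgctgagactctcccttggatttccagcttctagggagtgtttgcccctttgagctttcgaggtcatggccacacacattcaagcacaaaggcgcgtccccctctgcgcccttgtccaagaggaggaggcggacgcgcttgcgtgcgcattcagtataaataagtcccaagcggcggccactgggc
RefSeq gives Nanog more than one start, and the window shown ends at the upstream one, where the table also starts the gene. Bases read after this upstream start were not found in a GENCODE transcript of Nanog, whereas those after the downstream start were. In Nanog, TTTGCAT lay 75 to 69 bases before that start and a reverse CATTGT (read as ACAATG) lay 67 to 62 bases before it, with 1 base between them. From a start further downstream they lay 151 to 145 and 143 to 138 bases away. In Zfp42, the octamer lay 186 to 179 bases before the start. No searched motif was found in the Nr0b1 window. Promoter windows were at hand for 7 of the 10 members, 9 windows in all, since Nanog and Esrrb have 2 each and those of Nanog overlap. The octamer was present in 1 of the 9 windows (Zfp42), against 1.6% of 32817 windows over all genes, and TTTGCAT, which the octamer contains, in 3 of the 9 (Nanog and Zfp42), against 4.13%. The SOX site was present in 2 of the 9 (both of Nanog, against 10.7%), the STAT site in 1 of the 9 (Esrrb, against 7.01%) and AAGGTCA in 0 of the 9 (4.08%). The KLF box, a loose motif held by 45.9% of all windows, was found in 8 of the 9. These matches are descriptions of letters, and binding was not measured.

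Replicate 1 held 23716499 counts and replicate 2 held 20275749. The naive factors took 49448 counts in replicate 1 (0.2085%, with 95% Wilson bounds of 0.207 and 0.210%) and 36785 in replicate 2 (0.1814%, bounds 0.180 and 0.183%). A count of 0 would allow up to 3 counts, which is 0.126 counts per 1000000 (CPM) in replicate 1 and 0.148 CPM in replicate 2. These intervals and floors cover counting error only. All 10 members passed the filter of at least 10 counts over both libraries, which 14536 genes passed. The cell identity was checked on 6 ES cell markers. Tdgf1, a Nodal co-receptor, had 35161 and 25050 counts, Fgf4 5798 and 2965, Dppa5a 2915 and 298, and Pou5f1, the gene of Oct4, 1129 and 142. Utf1 had 9 and 4 counts, and Sox2 was listed at 0 in both libraries. The marker level of replicate 2 was thus well below that of replicate 1 for Dppa5a and Pou5f1. Sox2 lies within the span of Sox2ot on the same strand, and a fragment in both genes is counted for neither by default. The label for cell type covers mESC to neural precursor. The neural precursor genes Sox1 and Olig2 were at 0 in both libraries, while Nes, an intermediate filament gene, had 181 and 136 counts. In transcripts per 1000000 (TPM) the 8 neural precursor markers summed to 5.19 and 4.34 with the length of the exons and to 15.2 and 14.1 with the length of the whole transcript span. The 10 feeder fibroblast markers summed to 3.32 and 0.778 TPM with exons and to 5.04 and 0.907 TPM with the span.

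The study states that TPM was used for expression levels, without a formula. Here TPM was calculated from counts and the length column of the table, which spans introns as well as exons (span length), and again with the length of the exons alone (exonic length). The study describes these mRNA data as holding very few intronic reads. Span length therefore lowers the TPM of a gene with long introns relative to other genes. All 10 naive factors were above the median of all genes tested on both scales. With span length their median was 245 TPM, beside 7.88 TPM over all 14536 genes, and 5 of the 10 were in the top 10% of genes, which began at 118 TPM. This median is no typical level, as it falls in a gap between Klf2 (407 TPM) and Tfcp2l1 (83.1 TPM). It also lies above the medians of replicate 1 (221.5 TPM) and replicate 2 (200.1 TPM) taken singly. With exonic length their median was 105 TPM, beside 11.5 TPM over 14394 genes, and 4 of the 10 were in the top 10%, which began at 159 TPM. The mean of every member reached 10 TPM on both scales, as did 46.0% of all genes tested with span length and 52.4% with exonic length. The members were far from equal, covering a 94.4-fold range of span TPM and a 33.2-fold range of exonic TPM.

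**Figure D1:**
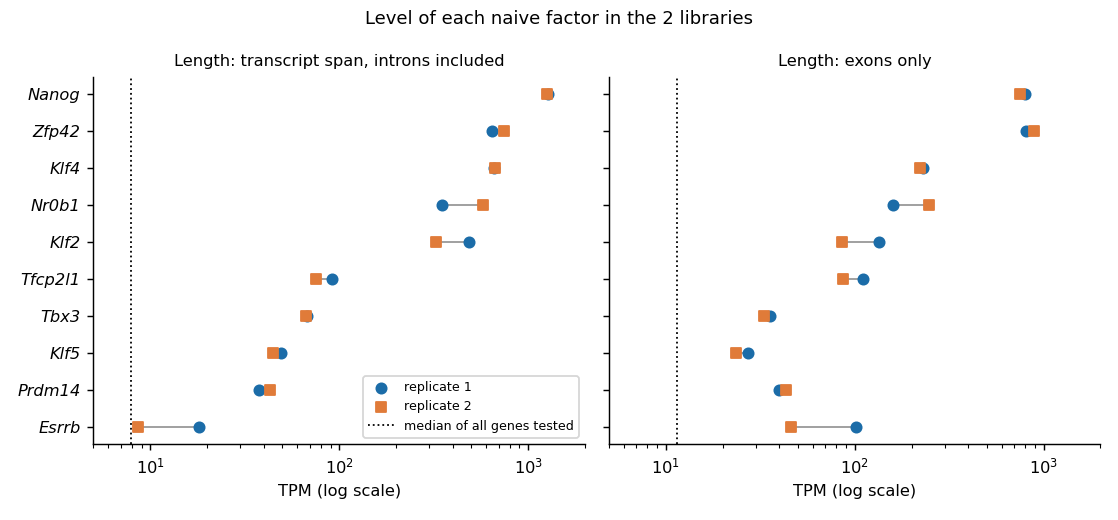
Level of each naive factor in replicate 1 (circles) and replicate 2 (squares), in TPM on a log axis, with span length on the left and exonic length on the right; the dotted line is the median of all genes tested. Nanog and Zfp42 had the highest means on both scales, although with span length the ranges of Zfp42 and Klf4 overlapped. Esrrb moved from 13.4 TPM with span length to 74.1 TPM with exonic length.

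Nanog, a homeodomain factor that holds mESCs in self-renewal, had the highest span TPM. Nanog (ENSMUSG00000012396.12, 4 exons at chr6:122707489-122714633, plus strand, mm10) drew 13460 counts in replicate 1 and 10151 in replicate 2. With span length this was 1269.8 and 1257 TPM, a mean of 1263.5 ± 8.88 TPM (SD, n = 2) and rank 91 of all genes tested. With exonic length it was 799 and 749 TPM, or 774 ± 35.1 TPM, and the lower value was again that of replicate 2. Of the 50-base words in its longest transcript, 4.67% also occurred in transcripts of other genes, most often the pseudogene Nanog-ps1, so a small part of its fragments may not be assignable to it alone.

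Zfp42 (Rex1), a zinc finger protein of the YY1 family used as a reporter of the naive state, was the other member with a leading mean. With span length the range of Klf4 overlapped that of Zfp42. Zfp42 (ENSMUSG00000051176.6, 5 exons at chr8:43295067-43307009, minus strand) had 11408 and 10076 counts. Its span TPM was 644 in replicate 1 and 747 in replicate 2, with a mean of 695 ± 72.7 TPM (SD, n = 2). With exonic length it was 807 and 886 TPM, or 847 ± 56.1 TPM, which placed it above Nanog at rank 150 of all genes. The lower Zfp42 replicate (807 TPM) and the higher Nanog replicate (799 TPM) were close to each other on that scale, although the ranges did not overlap. Zfp42 also had the highest share of words found in another gene, 9.17%, all of them in Zfp42-ps1.

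The KLF members are zinc finger factors that bind GC-rich boxes and can substitute for one another in part. Klf4, a reprogramming factor downstream of STAT3, had 5238 and 4038 counts (ENSMUSG00000003032.8, 5 exons at chr4:55527137-55532475, minus strand). Its span TPM was 661 in replicate 1 and 669 in replicate 2, a mean of 665 ± 5.65 TPM (SD, n = 2), and its exonic TPM was 225 ± 6.73. Klf2, whose protein is destabilised by ERK signalling, had 1878 and 953 counts (ENSMUSG00000055148.7, 3 exons at chr8:72319062-72321654, plus strand). Its span TPM was 488 in replicate 1 and 325 in replicate 2, or 407 ± 115 TPM, and its exonic TPM was 135 and 85.4, or 110.3 ± 35.3 TPM. Klf2 was therefore lower in replicate 2 on either scale, whereas Klf4 was close to equal in both. Klf5, which also acts in the trophectoderm, was the weakest of the KLF members, with 1071 and 740 counts (ENSMUSG00000005148.8, 4 exons at chr14:99298691-99313409, plus strand). It stood at 49.0 and 44.5 TPM with span length and at 27.4 and 23.5 TPM with exonic length, in both cases lower in replicate 2.

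Esrrb and Nr0b1 are nuclear receptors of the naive network. Esrrb, an orphan oestrogen-related receptor that can stand in for Nanog in self-renewal, had 4325 counts in replicate 1 and 1563 in replicate 2 (ENSMUSG00000021255.17, 7 exons at chr12:86361117-86521628, plus strand). Its level depended most on the length used, because its span of 160513 bp is 28.5 times its exonic length of 5626 bp. With span length Esrrb was last of the 10, at 18.2 and 8.62 TPM (13.4 ± 6.75 TPM, SD, n = 2), and with exonic length it was seventh, at 102 and 46.0 TPM (74.1 ± 39.8 TPM). Without any length Esrrb had a mean of 129.7 CPM, which was place 5 of the 10. Nr0b1 (Dax1), an X-linked receptor without a typical DNA-binding domain that restrains other nuclear receptors and Oct4, had 2177 and 2703 counts (ENSMUSG00000025056.4, 2 exons at chrX:86191775-86195944, plus strand). It had 352 and 574 TPM with span length (463 ± 157 TPM) and 160.2 and 247 TPM with exonic length (204 ± 61.6 TPM). Here replicate 2 was the higher library, the opposite of Esrrb. Among X-linked genes of at least 1 TPM, Nr0b1 was rank 33 of 532 with span length and rank 93 of 530 with exonic length.

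Tfcp2l1, Tbx3 and Prdm14 come from families of their own. Tfcp2l1, a CP2-family factor driven by LIF and STAT3, had 7737 and 4849 counts (ENSMUSG00000026380.10, 15 exons at chr1:118627945-118685168, plus strand). Its span TPM was 91.1 in replicate 1 and 75.0 in replicate 2 (83.1 ± 11.4 TPM, SD, n = 2), and its exonic TPM was 111 and 86.5 (98.8 ± 17.3 TPM). Tbx3, a T-box factor linked to self-renewal through PI3K signalling, had 1391 and 1043 counts (ENSMUSG00000018604.18, 7 exons at chr5:119670862-119684724, plus strand). Its span TPM of 67.6 and 66.6 was the closest pair of the 10 by SD (0.746 TPM), and its exonic TPM was 35.6 and 33.2. Prdm14, a PR-domain protein that represses FGF signalling and DNA methyltransferase genes, had 763 and 669 counts (ENSMUSG00000042414.7, 8 exons at chr1:13113428-13127163, minus strand). It was the member least affected by the choice of length, at 37.4 and 43.1 TPM with span length and 39.6 and 43.2 TPM with exonic length.

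The order of the members was read against the range of the 2 replicates. With span length it was Nanog, Zfp42, Klf4, Nr0b1, Klf2, Tfcp2l1, Tbx3, Klf5, Prdm14 and Esrrb. Neighbours overlapped for Zfp42 with Klf4 and for Nr0b1 with Klf2, so these pairs did not differ beyond their spread, and both pairs changed places in replicate 1. With exonic length the order was Zfp42, Nanog, Klf4, Nr0b1, Klf2, Tfcp2l1, Esrrb, Prdm14, Tbx3 and Klf5. Here Klf4 overlapped with Nr0b1, Klf2 with Tfcp2l1, and Tfcp2l1 with Esrrb. In both orders Nanog, Zfp42, Klf4, Nr0b1 and Klf2 made up the upper 5. A permutation test between 2 members over 2 libraries each has a smallest two-sided p of 0.333, so the order is a description.

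The counts of the 2 replicates were then compared for each gene by a two-sided exact binomial test against the ratio of library totals. The test compares these 2 libraries and not conditions. Of the 10 naive factors, 9 differed beyond sampling noise at a Benjamini-Hochberg adjusted p of 0.05, in a background where 60.8% of all genes tested did. In replicate 2, 7 members were lower (background 45.7%) and 2 were higher (background 15.1%). The median log2 ratio of replicate 2 over replicate 1, on CPM, was −0.18 over the members and also −0.18 over 9240 autosomal genes that had 50 counts or more in both libraries. Single members lay far apart, from −1.24 to 0.54. The labelled cell type's own markers differed too: of 5 tested ES cell markers 4 were lower in replicate 2 (Tdgf1, Fgf4, Pou5f1 and Dppa5a). The log2 ratio was −2.76 for Pou5f1 and −3.06 for Dppa5a. Their part in the differences of the naive factors was not tested.

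Esrrb gave the largest difference of the 10. Its log2 ratio was −1.24 (95% exact interval −1.33 to −1.16), with an adjusted p of 1.50e-206 in the exact binomial test, and 94.2% of genes with 50 counts or more in both libraries had a smaller ratio in size. Klf2 had a log2 ratio of −0.75 (−0.87 to −0.64, adjusted p = 7.38e-40, exact binomial test). Tfcp2l1 followed at −0.45 (−0.50 to −0.40, adjusted p = 2.96e-64, exact binomial test). Smaller differences, lower in replicate 2, were found for Klf5 (−0.31), Tbx3 (−0.19), Nanog (−0.18) and Klf4 (−0.15). Nr0b1 was higher in replicate 2, with a log2 ratio of 0.54 (0.46 to 0.62, adjusted p = 1.68e-37, exact binomial test). Zfp42 was higher by only 0.05 on the log2 scale (0.01 to 0.09, adjusted p = 0.0300, exact binomial test). Prdm14 had a log2 ratio of 0.04 (−0.12 to 0.19, adjusted p = 0.703, exact binomial test), which did not pass. The small ratios depend on the scaling. TMM and DESeq2 size factors raised every log2 ratio by 0.22 and 0.31, and with both Nanog, Klf4 and Prdm14 passed the exact binomial test as higher in replicate 2. Tbx3 (0.04 and 0.12) and Klf5 (−0.08 and 0.0050) did not pass with either, with adjusted p of 0.639 and 0.0656 for Tbx3 and 0.312 and 0.975 for Klf5 in the exact binomial test. With these factors Esrrb, Klf2 and Tfcp2l1 stayed lower, and Nr0b1 and Zfp42 stayed higher. Larger ratios can depend on the reference too: relative to the GC trend described below, Klf2 differed by only −0.03 and did not pass (adjusted p = 0.691, exact binomial test).

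GC content moved with the difference between the libraries. Over the same 9240 autosomal genes, transcript GC content and the log2 ratio were inversely ranked (Spearman's rho −0.65). Over the 10 members rho was −0.20, and over the 9 members other than Nr0b1 it was −0.52 (genes within the same 2 libraries, described without a test). The coding starts of Klf2, Zfp42 and Nr0b1 are shown because they cover this contrast: Klf2 has the highest transcript GC content of the 10, Zfp42 a low one, and Nr0b1 a high one with a ratio in the other direction. Each is the first 90 coding bases in GENCODE M21 (GRCm38), 5′ to 3′ on the strand of the gene, with every G and C in capitals. They start in exon 1 of Klf2 (plus strand, chr8:72319078-72319443, running into the next exon across an intron), in exon 5 of Zfp42 (minus strand, chr8:43296373-43296462) and in exon 1 of Nr0b1 (plus strand, chrX:86191801-86191890).
Klf2: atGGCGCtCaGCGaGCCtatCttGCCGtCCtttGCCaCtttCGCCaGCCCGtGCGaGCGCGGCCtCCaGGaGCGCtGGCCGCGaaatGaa
Zfp42: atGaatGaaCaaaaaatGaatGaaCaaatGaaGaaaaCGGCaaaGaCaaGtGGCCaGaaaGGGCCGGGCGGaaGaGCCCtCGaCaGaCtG
Nr0b1: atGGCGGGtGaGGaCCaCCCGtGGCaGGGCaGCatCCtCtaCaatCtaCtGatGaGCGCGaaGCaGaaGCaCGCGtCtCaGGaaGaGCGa
G and C made up 65.6% of these bases in Klf2, 46.7% in Zfp42 and 60.0% in Nr0b1, and the whole coding sequences had 70.7%, 52.9% and 60.7%. The first coding bases do not follow transcript GC content in every member. They had 75.6% in Klf5 and 67.8% in Klf4, both above Klf2, while the transcripts of Klf5 and Klf4 had 47.9% and 54.6%. The GC trend below uses transcript GC content only.

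**Figure D2:**
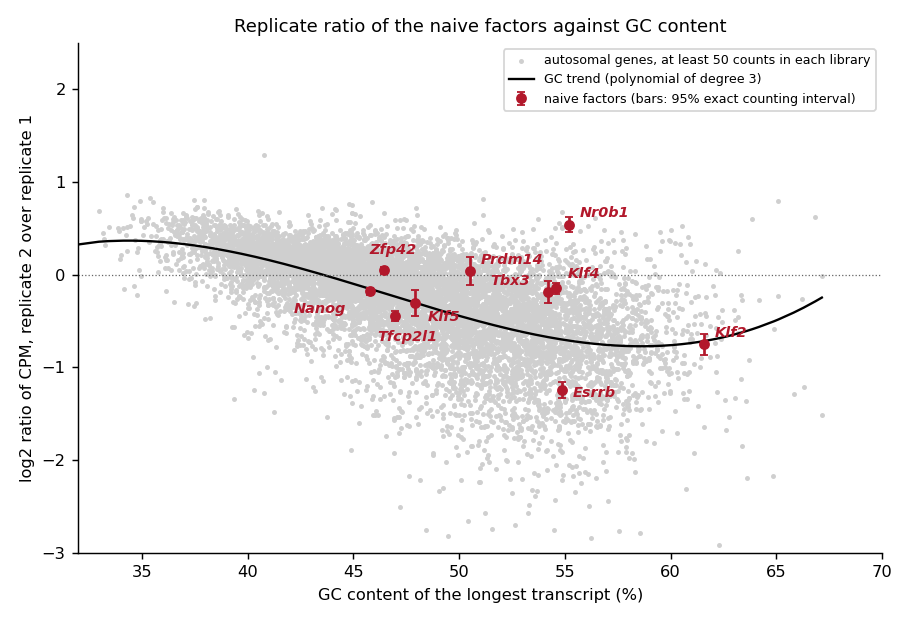
Log2 ratio of CPM, replicate 2 over replicate 1, against the GC content of the longest transcript (%), for 9240 autosomal genes (grey, 7 of them outside the axes), with the GC trend of these genes (line) and the 10 naive factors (red, bars are 95% exact counting intervals). Klf2, Klf5 and Nanog lie on the trend, Nr0b1 lies 1.25 above it and Esrrb 0.54 below it.

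A cubic trend of the log2 ratio on GC content was fitted on these autosomal genes and each member was compared with the ratio the trend gives at its GC content. Of the 10 members, 7 differed from the trend beyond sampling noise, against 45.6% of 14394 genes tested in this way. Prdm14 passed here and not against library totals, while Nanog, Klf2 and Klf5 passed against library totals and not here. Klf2 (61.6% GC) had a trend value of −0.72 and differed from it by −0.03 (adjusted p = 0.691, exact binomial test). Nanog (45.8% GC) differed from its trend value by −0.03 (adjusted p = 0.25, exact binomial test). For Klf5 (47.9% GC) the log2 ratio of −0.31 was set beside a trend value of −0.30.

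Esrrb and Tfcp2l1 lay below the trend, by −0.54 and −0.21 on the log2 scale. Klf4, Tbx3, Zfp42, Prdm14 and Nr0b1 lay above it. Klf4 and Esrrb have almost the same GC content (54.6% and 54.9%), with trend values of −0.69 and −0.70, and stood 0.54 above and 0.54 below them. Tbx3 (54.2% GC) stood 0.48 above, and Prdm14 (50.5% GC) 0.51 above. Nr0b1 (55.2% GC) had a trend value of −0.71 and stood 1.25 above it (adjusted p = 1.13e-196, exact binomial test). The size of this deviation was larger than that of 98.6% of genes. Of 654 autosomal genes of the same depth within 1 percentage point of its GC content, whose median log2 ratio was −0.66, 99.5% had a lower ratio than Nr0b1. Of 452 X-linked genes with that depth, whose median was 0.03, 94.7% had a lower ratio. Around the trend the members had an SD of 0.50 on the log2 scale, and all genes with 50 counts or more in both libraries had 0.42. Without Nr0b1, the member farthest from the trend, the SD of the other 9 was 0.37. The median size of the deviation was 0.37 for the 10 members, 0.25 without Nr0b1 and 0.23 for all genes. The part of GC content in these differences was not tested.

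Other genes of the pluripotency network were set beside the naive factors. Of 10 general pluripotency genes 9 were tested, and 8 of these differed between replicates, 7 of them lower in replicate 2, in the background of 60.8% and 45.7% given above. Their median was 95.8 TPM with both lengths. Tdgf1 was the highest at 3501 ± 165 span TPM (SD, n = 2). Fgf4, the growth factor that starts exit from the naive state, had 5798 and 2965 counts, Lin28a, a repressor of let-7 processing, had 4159 and 2068, and Dppa4 had 2190 and 677.

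Of 13 further genes of the naive network, 11 differed (background 60.8%), 9 lower (45.7%) and 2 higher (15.1%) in replicate 2, and their median was 30.6 span TPM and 34.5 exonic TPM. Socs3, a feedback inhibitor and target of STAT3, had 842 and 386 counts (139 ± 48.7 span TPM, SD, n = 2). Fbxo15, a reporter gene of mESCs that is dispensable in them, had 8302 and 4866 counts (107 ± 19.7 span TPM), and Gdf3, a TGF-beta ligand, had 612 and 219 (64.9 ± 33.1 span TPM). Il6st, the gp130 subunit of the LIF receptor complex, had 2839 and 1974 counts (42.8 ± 2.76 span TPM). Lifr and Nr5a2 were the members of this list that were higher in replicate 2.

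Of 10 genes of exit and the primed epiblast, 8 differed (background 60.8%), 5 lower (45.7%) and 3 higher (15.1%) in replicate 2, the last being Zic2, Foxd3 and Pou3f1, and their median was 17.1 span TPM and 22.8 exonic TPM. Otx2, which directs the move to primed epiblast, had 3758 and 2827 counts, or 253 ± 2.23 span TPM (SD, n = 2). This was above the span TPM of Tfcp2l1, Tbx3, Klf5, Prdm14 and Esrrb. With exonic length Otx2 had 161 ± 7.62 TPM, above the mean of Klf2, and its range overlapped that of Nr0b1. Zic2 had 1097 and 1212 counts and Foxd3, a forkhead repressor, had 366 and 544. Dnmt3b, a de novo DNA methyltransferase, had 2360 and 1750 counts and Etv5, an ETS factor downstream of FGF, had 1729 and 1109.

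The 6 primitive endoderm markers summed to 16.0 exonic TPM in replicate 1 and 15.7 in replicate 2, mostly Dab2, and to 5.42 and 6.53 span TPM. The 5 trophoblast markers summed to 16.1 and 13.2 exonic TPM (37.9 and 32.4 span TPM), mostly Eomes, with Cdx2 at 0 in both libraries. Eomes, a T-box gene with 396 and 243 counts, had a mean of 30.3 span TPM, above the span TPM of Esrrb, and 12.6 exonic TPM, below that of every naive factor. The naive factors themselves summed to 2447 and 2421 exonic TPM.

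**Figure D3:**
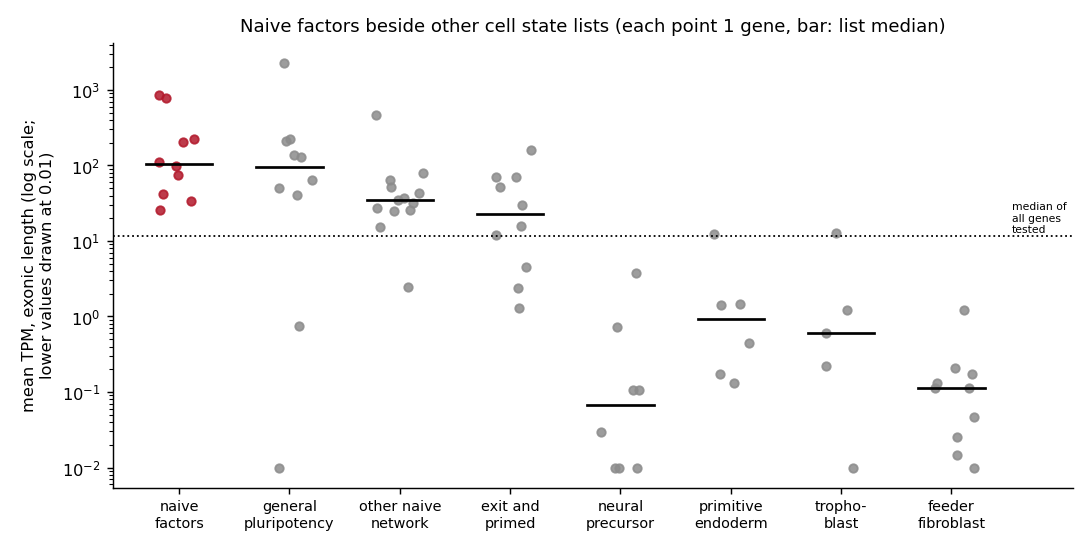
Mean exonic TPM over the 2 replicates (log axis, values below 0.01 drawn at 0.01) of each gene in the naive factor list and 7 other lists, with the list median as a bar and the median of all genes tested as a dotted line. The naive factors (median 105 TPM) and general pluripotency genes (95.8 TPM) lie above the exit list (22.8 TPM), and lineage markers lie mostly below the dotted line.

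Each naive factor belongs to a family of related proteins, and the members' share of their family was calculated on TPM. In the KLF family, Klf2, Klf4 and Klf5 together had 39.6% of exonic TPM in replicate 1 and 32.4% in replicate 2, and 59.5% and 51.5% of span TPM. Of the 14 paralogs, 9 reached 10 exonic TPM. The highest was Klf9, with 175 and 201 exonic TPM, and with span length Klf6, with 313 and 359 TPM. Klf4 was above every paralog on both scales, whereas the mean of Klf5 was above that of 10 of the 14 with exonic length.

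Esrrb had 96.2% and 96.3% of the exonic TPM of the oestrogen-related receptors, as Esrra had 68 and 21 counts and Esrrg 2 and 8. Nr0b1 was in the same position, since its only paralog Nr0b2 had 0 and 1 counts. Zfp42 had 74.7% and 70.7% of the exonic TPM of the YY1 family, beside the general factor Yy1 at 274 and 368 TPM, and Yy2 was at 0 in both libraries.

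Tbx3 and Prdm14 were not the leading members of their families, and for Tfcp2l1 the order changed with the length. Ubp1 had 192 and 178 exonic TPM, above Tfcp2l1, which had 32.1% and 28.6% of the exonic TPM of the CP2 and grainyhead family. With span length Ubp1 had 83.0 and 81.2 TPM, within the range of Tfcp2l1 (91.1 and 75.0 TPM). Mga, a large repressor that carries a T-box, had 226 and 254 exonic TPM, and Tbx3 had 12.3% and 10.7% of the exonic TPM of the T-box family. Tbx10 was at 0 in both libraries. Prdm14 had 19.4% and 21.4% of the span TPM of the PRDM family, below Prdm4 at 62.6 and 52.7 span TPM.

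**Figure D4:**
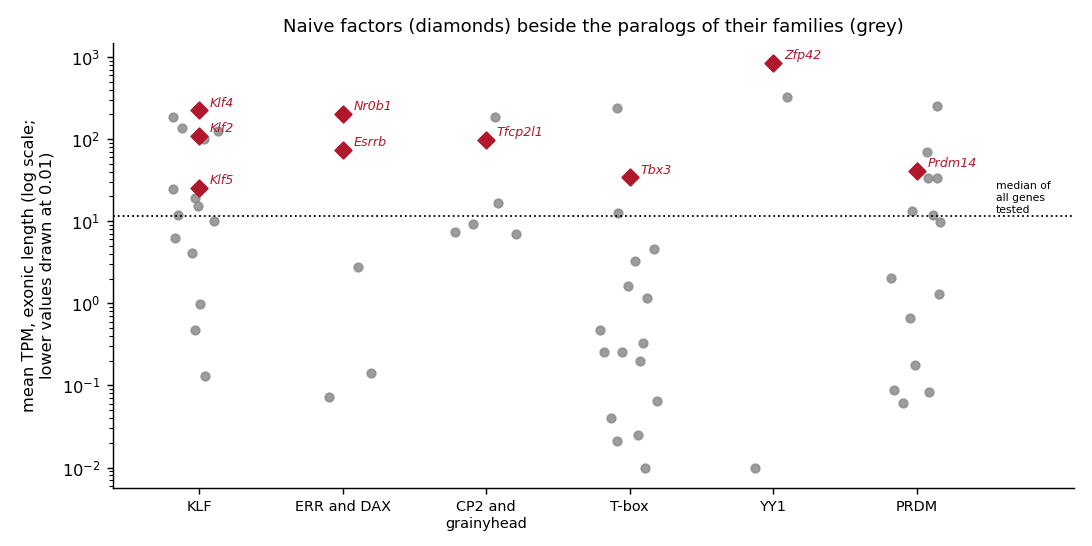
Mean exonic TPM over the 2 replicates (log axis, values below 0.01 drawn at 0.01) of the naive factors (diamonds) and of the paralogs in their families (grey points); the dotted line is the median of all genes tested. Nr0b1, Esrrb and Zfp42 stand above their paralogs, while Mga and Ubp1 stand above Tbx3 and Tfcp2l1 (with span length Ubp1 and Tfcp2l1 overlap).

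No other gene of the table overlapped a naive factor. Of the 20 nearest genes, 1 on each side of each member, 15 were tested, 11 differed between replicates (background 60.8%) and 10 reached 10 exonic TPM. Nanog lay between Dppa3, a maternal factor that protects methylation in the zygote, and Slc2a3, a glucose transporter. Dppa3 was 77.2 kb away with 604 and 170 counts and a log2 ratio of −1.60, and Slc2a3 was 13.2 kb away with 20683 and 14938 counts and a log2 ratio of −0.24. The ratio of Nanog itself was −0.18.

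Zfp42 had Triml2 at 101 kb with 4776 and 3679 counts on one side and Adam26b at 0 in both libraries on the other. Klf4 lay between Gm12505, with 1 and 2 counts, and Actl7b, which was 1207.5 kb away and at 0 in both libraries. Nr0b1 lay between Samt3, at 0 in both libraries, and Mageb4, with 31 and 45 counts. Tbx3os2, on the opposite strand 0.363 kb from Tbx3, had 10 and 4 counts. Klf5 had its own paralog Klf12 as a neighbour, 557 kb away, with 793 and 719 counts.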

How the data were processed

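Messenger RNA of 2 replicates of 1 group was analysed. The authors deposited raw counts per gene, made by featureCounts 1.5.2 (named in the deposited header) in reverse-stranded paired mode over transcript spans on mm10, introns included. The submitters' processing notes also name STAR 2.4.2a and Bowtie2 2.3.2. Sample descriptions carry a letter that the column names lack, and columns were matched by the rest of the name. The table's starts were 1 below the RefSeq start for 75.9% of 12209 genes with the same end, so 1 was added.

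From these counts, TPM was computed with the length column (equal to the transcript span for 22556 of 22556 genes), with the exon union of GENCODE M21 (21258 genes matched by symbol, 886 by older symbol, 412 unmatched and left out), and as CPM, in Python 3.11.15. GC content was that of the longest GENCODE transcript. Replicates were compared by a two-sided exact binomial test (scipy 1.17.1), adjusted by Benjamini-Hochberg over 14536 genes of 10 or more counts summed over both libraries, and log2 ratios used 0.5 added counts. Alternatives were edgeR 4.0.16 TMM factors, DESeq2 1.42.0 size factors, a GC trend (polynomial of degree 3, autosomal genes of 50 or more counts in both libraries), other count filters and 0.1 added counts. All 10 members were named. Of other lists up to 5 genes were named by mean TPM (span length) from 10 TPM, with genes at 0 and nearest neighbours. Nr5a2, Lifr, Pou3f1, Dab2, Eomes and family members outside these limits were named after their values were seen. Members and lists were chosen with earlier results of these data known. Protein sequences, and promoter windows of Klf5, Tbx3 and Prdm14, were not analysed here. Some genes of the other lists are not reported here.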

Additional observations from a re-analysis of the deposited data

How the results depend on the processing

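There were 98 alternative values over 24 results. Of these, 56 kept their direction and side of the threshold, or for values without a test moved by less than the replicate SD. A further 26 moved by more, 4 fell short of the threshold, 3 newly passed it and 9 changed direction. Some of the 56 could not have come out otherwise, so the 56 are not a measure of robustness. With 2 replicates, either value lies closer to their mean than the SD. The TPM of each factor with a replicate left out was thus bound to count as unmoved. With 0.1 added counts the exact binomial test is unchanged, and at the counts of these factors the log2 ratio hardly moves. The median TPM of the naive factors was 245 with span length, 105 with exonic length and 121 as CPM, and 200.1 to 221 with each replicate left out. Of the 10 factors, 4 kept their place in the order with exonic length and 2 with CPM, and 6 to 10 did with each replicate left out. Between 7 and 9 members differed between replicates under every alternative run.

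The log2 ratio changed direction under TMM factors for Nanog (0.044), Klf4 (0.076) and Tbx3 (0.036), under DESeq2 size factors for Nanog (0.13), Klf4 (0.16), Klf5 (0.0050) and Tbx3 (0.12), and relative to the GC trend for Klf4 (0.54) and Tbx3 (0.48). Under these scalings 8 members differed, 5 higher and 3 lower in replicate 2, in a background of 57.8% (27.0% higher and 30.7% lower with TMM, 31.6% and 26.1% with DESeq2 factors). Relative to the GC trend 5 were higher (background 24.0%) and 2 lower (21.6%). Prdm14 passed with TMM (0.26), DESeq2 factors (0.35) and the GC trend (0.51), by the exact binomial test. Nanog, Klf2 and Klf5 fell short of the threshold relative to the GC trend, and Klf5 also with TMM. Calls that held could still change in size: relative to the GC trend Esrrb was −0.54 and Nr0b1 1.25, and Zfp42 was 0.27 with TMM and 0.36 with DESeq2 factors. The cause was not tested. No paired analysis was possible because all samples are of 1 group. With counts of 669 or more per library for every member, precision is limited by the number of libraries.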
